A study of Mus musculus with 43 samples.

Results

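The 40 genes described here encode the subunits of voltage-gated sodium and calcium channels. They are the protein-coding genes among the 56980 in the count table whose symbols follow the sodium channel pattern (Scn, a number, then a or b) or begin with Cacna, Cacnb or Cacng. The set holds 10 sodium channel alpha subunits, 4 sodium channel beta subunits, 10 calcium channel alpha1 subunits, 4 alpha2delta subunits, 4 calcium channel beta subunits and 8 members of the Cacng family. They were measured by bulk RNA-seq in 43 libraries of GFP+ cells, which the labels call layer 2/3 excitatory neurons, sorted from the somatosensory cortex of C57BL/6JRccHsd mice. The cells had been labelled by in utero electroporation at E15.5 with pCAG-GFP, or, for the P4 Cux1 KO, with pCALNL-GFP and pCAG-iCre, so that only CRE-expressing cells showed GFP.

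WT libraries came from E19 (4 female and 4 male), P4 (3 and 3) and P7 (2 and 3). Cux2 KO mice, homozygous for a germline null allele (Cux2-/-), gave 4 libraries per sex at E19 and 3 per sex at P4. Cux1 KO libraries were homozygous for the germline C-terminal deletion (Cux1ΔC/ΔC) at E19, with 4 per sex. At P4 there were 2 male Cux1 KO libraries only, in which CRE removed the floxed exon 23 over a Δ23 allele in the electroporated cells. Stage and allele therefore cannot be told apart in the Cux1 KO. Sequencing took place in 2 rounds, E19 in the earlier and both postnatal stages in the later one. Between E19 and P4, stage and round cannot be told apart, whereas P4 and P7 shared a round. Nothing in the labels says how many animals gave each library, so the p-values measure the spread between these libraries.

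A voltage-gated sodium channel consists of one pore-forming alpha subunit with auxiliary beta subunits, and it carries the rising phase of the action potential. In a calcium channel the alpha1 subunit forms the pore and sets the current type, L (Cacna1c, Cacna1d), P/Q (Cacna1a), N (Cacna1b), R (Cacna1e) or T (Cacna1g, Cacna1h, Cacna1i), while beta and alpha2delta subunits bring the pore to the membrane. Most brain Cacng proteins are TARPs, which escort AMPA-type glutamate receptors to the synapse; Cacng1 and Cacng6 are known from muscle. In developing cortex these channels act before mature firing starts, and Scn3a is known as the sodium channel of the immature brain.

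Each E19 library held 13321095 to 20715732 counts, of which 18177 to 34755 fell on the 40 genes. The P4 libraries held 19499125 to 60559585 (7072 to 40293 on these genes) and the P7 libraries 15312029 to 27633827 (5884 to 16413). The summed level of 9 upper-layer excitatory neuron markers, all detected at every stage, was 3885 to 5751 CPM (counts scaled to library size by TMM) in the WT libraries at E19, 798 to 1027 at P4 and 436 to 618 at P7. Over the same stages the 8 astrocyte and radial glia markers summed to 1246 to 1802, 3945 to 6279 and 8191 to 11982 CPM. The 7 oligodendrocyte lineage markers summed to 492 to 734, 629 to 2949 and 3206 to 4995 CPM. The astrocyte and radial glia sum was thus above the upper-layer neuron sum in every WT library at P4 and P7, and below it in every one at E19. Cux1 was not called lower in the Cux1 KO (log2 fold change -0.43, adjusted p = 0.286, 312 CPM against 423 in WT for E19 females), nor was Cux2 in the Cux2 KO (log2 fold change -0.37, adjusted p = 0.896, 349 against 457 CPM). In the other comparisons with WT by sex the log2 fold change was -0.23 in E19 males and 0.12 in P4 males for Cux1, and -0.24 in E19 males and 0.19 and 0.26 in P4 females and males for Cux2, none called. The Cux1 alleles remove an end or 1 exon of the gene, so a count over the whole gene does not check those labels; the part that the Cux2 allele removes is not given in the sources used here.

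At E19 the WT neurons already transcribed most of the repertoire. Of the 40 genes, 30 had a mean of at least 1 CPM over the 8 WT E19 libraries, and 10 were below. Levels of different genes are compared per kb of exon. The calcium channel beta subunit Cacnb3 stood first with 47.2 ± 4.67 CPM per kb (SD, n = 8), and the TARPs Cacng4 and Cacng7 followed with 44.4 ± 6.6 and 40.4 ± 2.57. Cacnb3 and Cacng4 did not differ beyond their spread, nor did Cacng4 and Cacng7. Cacnb1, a beta subunit also used in muscle, and Cacna1h, a T-type pore, came next with 14.1 ± 1.43 and 13.95 ± 2.39 CPM per kb and overlapped each other.

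Among sodium channel pores Scn3a had the highest level per length (5.65 ± 0.807 CPM per kb), above Scn8a (2.97 ± 0.501), Scn2a (1.95 ± 0.496) and Scn1a (1.31 ± 0.404). Scn8a encodes the channel of mature initial segments and nodes, Scn2a the early axonal channel and Scn1a the one best known from interneurons. Scn3b, an auxiliary subunit, stood above every sodium channel pore with 10.4 ± 1.72 CPM per kb, while Scn2b (1.63 ± 0.414) was lower. Among calcium channel pores the order after Cacna1h was Cacna1b (5.35 ± 0.944), Cacna1c (3.12 ± 0.462), Cacna1g (2.56 ± 1.51) and Cacna1d (1.47 ± 0.378), with Cacna1g spread so widely that it overlapped both neighbours. This order rests on the division by exon length. In CPM alone the mean of Cacna1c (69.7) was above that of Cacna1b (53.5). Several pores known from sensory neurons, muscle and retina were near the floor: Scn4a, Scn7a and Scn10a had at most 4 counts in any WT E19 library, and Scn11a, Cacna1s and Cacna1f had means of 0.318, 0.108 and 0.105 CPM. Cacna2d4, Cacng6 and Scn4b were likewise under 1 CPM.

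**Figure D1:**
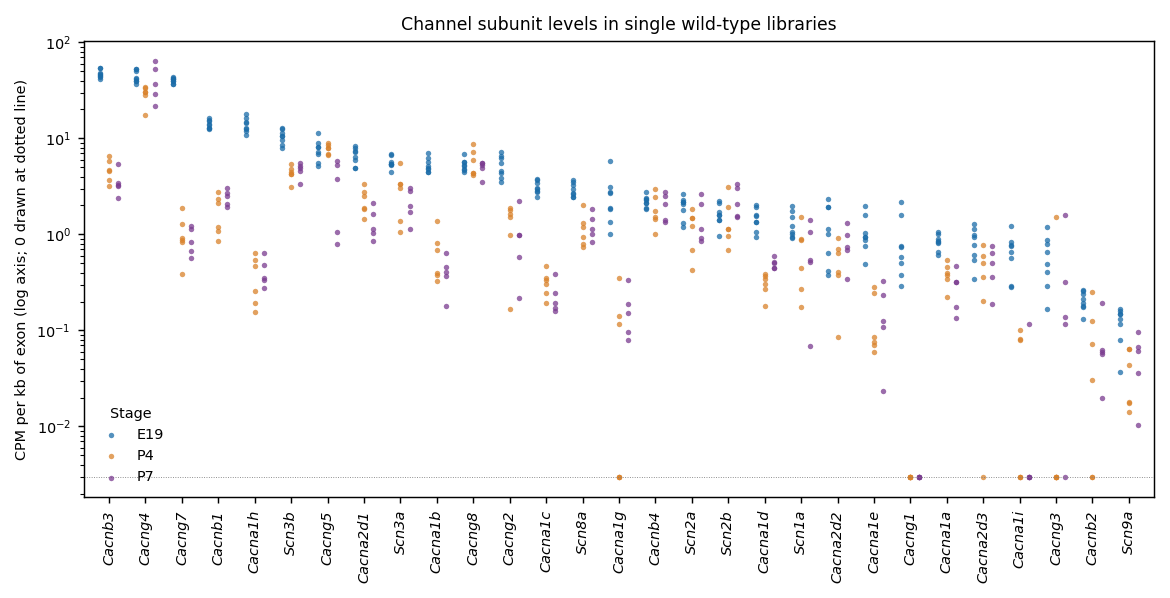
Levels of channel genes in CPM per kb of exon (log axis) in single WT libraries at E19 (n = 8), P4 (n = 6) and P7 (n = 5), for genes with a mean of at least 0.1 CPM per kb at E19, ordered by that mean. E19 points of Cacnb3, Cacng7, Cacnb1, Cacna1h and Cacna1c lie clear above all P4 and P7 points, whereas those of Cacng8 and Cacnb4 mix across stages.

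Between E19 and P4 most of the tested channel genes fell, including every calcium channel pore that could be tested. Of the 40 genes, 31 had enough reads to be tested in WT, and 17 of these were lower at P4 while none was higher (edgeR quasi-likelihood test, adjusted p under 0.05 and more than a 2-fold change). Over all 18585 genes tested the step called 46.3%, with 23.7% lower. The median log2 fold change was -1.49 over the tested channel genes, and the same with Cacng1 set at its bound, against 0.03 over all genes. A filter on low counts decides which genes are tested, and a gene can pass it through E19 alone. Beside this change, 7 of the 9 upper-layer neuron markers were called lower (median log2 fold change -3.59), and 6 of the 8 astrocyte and radial glia markers and 4 of the 7 oligodendrocyte lineage markers were called higher. Their part in the result was not tested, and in bulk samples fewer cells of a type and less RNA per cell cannot be told apart.

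All 8 calcium channel pores that could be tested fell, with a median log2 fold change of -3.15. The T-type pore gene Cacna1h had 119 to 198 CPM (median 150.1) at E19 and 1.69 to 6.94 CPM (median 3.97) at P4 (log2 fold change -5.19 ± 0.33 SE, adjusted p = 4.70e-09). Cacna1c, the main L-type pore of neurons, had 55.02 to 84.7 CPM (median 66.9) at E19 and 4.35 to 10.4 CPM (median 7.17) at P4 (log2 fold change -3.25 ± 0.19 SE, adjusted p = 1.91e-09). The 2 stages did not overlap for either gene. Cacna1b, the N-type pore of presynaptic terminals, had 44.2 to 71.1 CPM (median 50.01) at E19 and 3.31 to 13.8 CPM (median 5.41) at P4 (log2 fold change -3.01 ± 0.29 SE, adjusted p = 2.84e-07). The second L-type gene, Cacna1d, had 14.4 to 30.5 CPM (median 22.02) at E19 and 2.73 to 5.86 CPM (median 4.94) at P4 (log2 fold change -2.20 ± 0.23 SE, adjusted p = 5.99e-07). Cacna1a, the P/Q-type pore that drives release at mature synapses, had 11.7 to 20.3 CPM (median 16.2) at E19 and 4.28 to 10.2 CPM (median 7.39) at P4 (log2 fold change -1.08 ± 0.19 SE, adjusted p = 1.58e-04). Cacna1a thus had the smallest fall of the pores, by 1.08 on the log2 scale, though again without overlap. The R-type Cacna1e and the T-type Cacna1g and Cacna1i fell by 3.04, 4.55 and 3.90; at P4 both T-type genes were without a read in 3 of 6 libraries.

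The auxiliary calcium channel genes split. Cacnb3 had 209 to 274 CPM (median 232) at E19 and 16.3 to 32.8 CPM (median 23.1) at P4 (log2 fold change -3.28 ± 0.15 SE, adjusted p = 2.11e-10). Cacnb1 had 71.98 to 94.6 CPM (median 79.4) at E19 and 4.93 to 15.9 CPM (median 9.54) at P4 (log2 fold change -2.99 ± 0.25 SE, adjusted p = 7.00e-08). Both beta genes thus fell without overlap between the stages. Cacnb4, the beta subunit associated with epilepsy and ataxia in mice, had 16.7 to 25.2 CPM (median 20.02) at E19 and 9.19 to 26.8 CPM (median 14.9) at P4 (log2 fold change -0.26 ± 0.19 SE, adjusted p = 0.231). Its libraries overlapped between the stages and the test did not call it. Cacna2d1, an alpha2delta subunit that is also the gabapentin receptor, had 108.1 to 185 CPM (median 149) at E19 and 32.2 to 73.2 CPM (median 48.7) at P4 (log2 fold change -1.49 ± 0.19 SE, adjusted p = 5.27e-06). Cacna2d2 and Cacna2d3 had log2 fold changes of -1.19 and -0.99 and were not called (adjusted p = 0.0549 and 0.229). Cacnb2 was not called either (log2 fold change -1.39, adjusted p = 0.156), but it was without the third P4 female library (-2.14, adjusted p = 0.0429).

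Within the Cacng family, genes that lie side by side behaved differently. Cacng7 had 147 to 174 CPM (median 160.3) at E19 and 1.52 to 7.41 CPM (median 3.55) at P4 (log2 fold change -5.26 ± 0.28 SE, adjusted p = 8.51e-10). Its neighbour Cacng8, the TARP of hippocampal synapses, had 13.1 to 20.5 CPM (median 15.4) at E19 and 12.4 to 26.02 CPM (median 15.4) at P4 (log2 fold change 0.14 ± 0.14 SE, adjusted p = 0.41). Cacng7 fell to a small part of its E19 level, and Cacng8 overlapped fully between the stages. Cacng7 occupies chr7:3380237-3416738 and Cacng8 chr7:3439199-3464781 on the same strand (GRCm39), 22.5 kb apart, with the weakly expressed Cacng6 next in line. On chromosome 11 the neighbours were Cacng1, Cacng4 and Cacng5. Cacng1 had 246 counts over the 8 E19 libraries and 0 over the 6 P4 libraries. Against a floor of 3 counts over the group, and with counting error alone, that makes it at least 168-fold lower at P4. The spread between P4 libraries can be larger than counting error, as for Cacng3 with 0, 0 and 410 counts in WT males, so the true bound may be lower. Cacng4 had 151 to 218 CPM (median 173) at E19 and 72.2 to 142 CPM (median 125) at P4 (log2 fold change -0.56 ± 0.14 SE, adjusted p = 0.00246). Cacng5 had 22.6 to 49.9 CPM (median 33.3) at E19 and 29.6 to 39.05 CPM (median 34.6) at P4 (log2 fold change 0.07 ± 0.16 SE, adjusted p = 0.715). Cacng4 passed the adjusted p without overlap between the stages but missed the 2-fold limit, and the Cacng5 libraries overlapped. Counts of Cacng4 could include reads of Gm11650, an antisense gene that shares exon sequence with it, since the strand setting of the counting is not stated. Cacng2, or stargazin, was lower by 2.00 on the log2 scale at P4 (adjusted p = 3.29e-04).

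Of the sodium channel genes 2 of 6 tested alpha subunits (median log2 fold change -1.14) and 1 of 3 beta subunits were called lower. Scn8a had 38.4 to 58.9 CPM (median 44.9) at E19 and 11.7 to 31.6 CPM (median 16.8) at P4 (log2 fold change -1.32 ± 0.21 SE, adjusted p = 6.13e-05). Scn3b had 56.5 to 91.3 CPM (median 75.5) at E19 and 22.3 to 38.7 CPM (median 31.3) at P4 (log2 fold change -1.20 ± 0.14 SE, adjusted p = 2.11e-06). Scn9a, a weakly expressed pore known from nociceptors, had 0.471 to 2.1 CPM (median 1.77) at E19 and 0.18 to 0.821 CPM (median 0.393) at P4 (log2 fold change -1.66 ± 0.50 SE, adjusted p = 0.00865). Of these, Scn8a and Scn3b did not overlap between stages while Scn9a did. Scn3a had 59.2 to 91.6 CPM (median 72.6) at E19 and 14.1 to 74.4 CPM (median 42.8) at P4 (log2 fold change -0.96 ± 0.28 SE, adjusted p = 0.00674). Scn2a had 15.6 to 34.7 CPM (median 27.5) at E19 and 5.59 to 23.7 CPM (median 17.5) at P4 (log2 fold change -0.68 ± 0.29 SE, adjusted p = 0.0477). Both passed the adjusted p, missed the 2-fold limit and had overlapping libraries. Scn1a, Scn2b and the TARP gene Cacng3 were not called (log2 fold changes -0.87, -0.15 and -2.61). Cacng3 had reads in 1 of the 6 WT P4 libraries, the third male, with 5.99 CPM; without it the remaining P4 libraries were at 0 and the gene was called (fitted log2 fold change -8.79, which depends on the prior count, adjusted p = 4.34e-06). On chromosome 2, Scn3a, Scn2a, Scn1a, Scn9a and Scn7a lie in this order in one cluster (GRCm39), with 53.1 kb between Scn3a (chr2:65287462-65397971) and Scn2a (chr2:65451102-65597795) and 503 kb between Scn2a and Scn1a. Scn7a, which is found in glia as a sodium-sensing channel, and Cacna2d4 did not pass the filter on low counts. Scn7a went from at most 1 count per library at E19 to a mean of 1.06 CPM at P4, with 3 of 6 libraries at 0, and Cacna2d4 went from 0.101 to 1.15 CPM. Counts of Cacna2d4 could include reads of the antisense gene Lrtm2. With no filter on low counts, and with all WT and knockout groups in one fit, edgeR called both genes higher at P4.

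The same step in the Cux2 KO, which shares no library with WT but shares the 2 sequencing rounds, called 19 of 32 tested channel genes lower and 0 higher, beside 24.6% lower over all genes. All 17 genes called in WT were among them, though how often this held over all genes called in WT is not given here. The other 2 were Scn3a and Cacnb2, with log2 fold changes of -1.26 ± 0.16 SE and -2.15 ± 0.69 SE; whether these differ from WT was not tested. The log2 fold change of Cacng7 was -5.20 ± 0.12 SE, that of Cacnb3 -3.31 ± 0.21 and that of Cacna1c -3.01 ± 0.20. Cacng8 again had a value near 0, with 0.01 ± 0.13. In WT males alone 15 of 31 channel genes were called lower, beside 21.2% of all genes, and they held 14 of the 17; Scn8a, Scn9a and Cacna1a were not among them. In WT females alone 20 of 31 were called lower, beside 23.5% of all genes, and they held all 17. Females also called Scn3a and Scn1a (log2 fold changes -1.54 and -1.43, adjusted p = 0.0065 and 0.0191 by edgeR). Cacng3, without reads in WT P4 females, was called there too. In males Scn3a and Scn1a were not called (log2 fold changes -0.44 and -0.36, adjusted p = 0.155 and 0.640 by edgeR), nor was Cacng3. Whether the steps of the sexes differ was not tested. The steps by sex use the same libraries that gave the 17 calls, so they are no independent check. Without the first WT P4 female library, Cacna1a fell under the 2-fold limit (log2 fold change -0.97). Scn3a gained the call without WT E19 male replicate 2, 3 or 4, P4 female replicate 2 or P4 male replicate 3 (log2 fold change -1.01 to -1.18). Cacna2d2 gained it without E19 female replicate 1 or 4, E19 male replicate 4 or P4 male replicate 2 (-1.31 to -1.42), and Scn1a without the first P4 male library (-1.27).

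**Figure D2:**
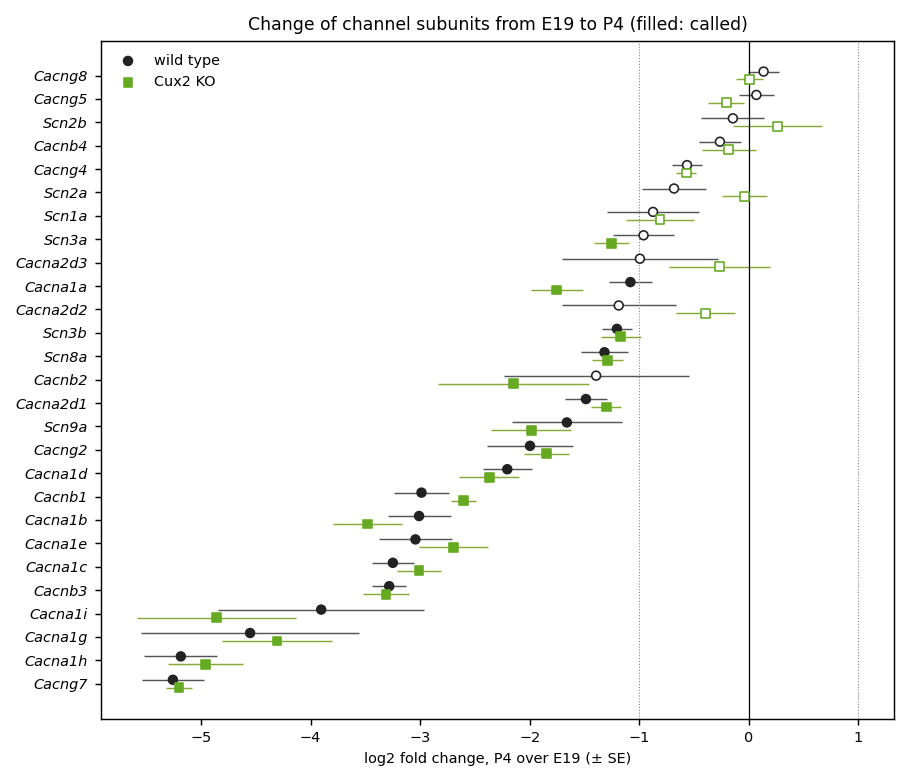
Log2 fold change from E19 to P4 (x axis, ± SE) of tested channel genes in WT (circles, 6 against 8 libraries) and in Cux2 KO (squares, 6 against 8), with filled symbols for called genes; Cacng1, which had no P4 reads, and genes with the widest SEs, such as Cacng3, are left out. Cacng7 and Cacna1h lie near -5.19 in WT and the calcium channel pores lie below -1, while Cacng8, Cacng5, Scn2b and Cacnb4 lie near 0 in both genotypes.

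GC content moved with the stage change across genes. Across 18516 tested genes the Spearman correlation of the log2 fold change with the GC content of the longest transcript was -0.30, and across the 31 channel genes it was -0.30. These are descriptions across genes, which share libraries and are not independent replicates, and the part of GC content in the falls was not tested.

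Promoter windows are shown for 3 genes that the results turn on: Cacng7, with the most negative fitted fold change of the stage step among genes with reads at both stages, and Cacnb3 and Cacng5, which had the smallest p of the P4 comparisons of the Cux1 KO with WT and with the Cux2 KO. Each is the 300-base stretch from 250 bases before to 50 after the most upstream start that RefSeq lists (GRCm38.p6, a build other than that of the counts). The windows lie at chr7:3332575-3332874 (plus strand) for Cacng7, at chr15:98632078-98632377 (plus strand) for Cacnb3 and at chr11:107915006-107915305 (minus strand) for Cacng5. Capitals mark the GC box GGGCGG, bound by SP1-type factors, on either strand.
Cacng7: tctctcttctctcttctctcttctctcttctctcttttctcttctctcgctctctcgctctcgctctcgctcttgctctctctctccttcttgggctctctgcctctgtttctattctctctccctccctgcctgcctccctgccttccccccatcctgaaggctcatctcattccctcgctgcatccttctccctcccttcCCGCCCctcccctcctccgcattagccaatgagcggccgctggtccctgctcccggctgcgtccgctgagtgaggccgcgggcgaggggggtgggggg
Cacnb3: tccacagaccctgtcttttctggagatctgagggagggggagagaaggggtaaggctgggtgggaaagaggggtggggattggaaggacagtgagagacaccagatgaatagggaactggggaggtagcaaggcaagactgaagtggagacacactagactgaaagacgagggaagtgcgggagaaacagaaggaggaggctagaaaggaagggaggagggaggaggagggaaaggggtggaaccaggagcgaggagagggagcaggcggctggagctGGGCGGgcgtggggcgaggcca
Cacng5: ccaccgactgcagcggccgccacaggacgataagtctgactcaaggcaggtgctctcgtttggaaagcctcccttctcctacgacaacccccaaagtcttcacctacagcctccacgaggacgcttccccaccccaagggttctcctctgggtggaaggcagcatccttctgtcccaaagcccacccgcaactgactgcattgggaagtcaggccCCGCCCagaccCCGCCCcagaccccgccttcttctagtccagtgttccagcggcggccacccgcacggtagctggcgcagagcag
The Cacng7 window holds 1 such match and 15 CpG sites, the Cacnb3 window 1 match and 7 CpG sites, and the Cacng5 window 2 matches and 17 CpG sites. RefSeq gave a window for 30 of the 40 genes, and 13 held GGGCGG, beside 35.9% of 27025 promoters. Searched on both strands, the Cut homeodomain core ATCGAT was in 1 window, that of Cacna1f, and ATCAAT in 0, beside 0.881% and 7.72% of all promoters. A match is a description of these letters only.

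In WT, Scn3a led the sodium channel pores at every stage. Taking the per-length CPM of Scn1a, Scn2a, Scn3a and Scn8a as a pool, Scn3a held 47.8% ± 2.85 of it at E19 (SD, n = 8), 46.9% ± 11.97 at P4 (n = 6) and 38.7% ± 3.83 at P7 (n = 5). Scn8a held 25.02% ± 1.6, 22.04% ± 10.5 and 23.3% ± 3.93. The share of Scn2a was 16.3% ± 2.67, 19.5% ± 4.25 and 26.7% ± 4.48. The mean share of Scn1a lay between 10.9 and 11.5%. No step passed the test over the 4 genes and 2 steps. The nearest was the Scn2a difference from P4 to P7, 7.16 percentage points ± 2.65 SE (exact two-sided permutation test, p = 0.0346, adjusted p = 0.277), with overlapping libraries. For Scn3a the step from E19 to P4 was -0.843 points ± 4.99 SE and the step from P4 to P7 -8.23 ± 5.18 (exact permutation tests, adjusted p = 0.948 and 0.346). Shares of single WT P4 libraries ranged widely, from 36.9 to 69.8% for Scn3a. In the P4 knockouts the mean share of Scn2a was 33.6% in Cux2 KO females, 30.4% in Cux2 KO males and 39.4% in Cux1 KO males. The means of Scn3a in these groups were 34.3, 38.0 and 49.7%. Shares in the knockouts were not tested.

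**Figure D3:**
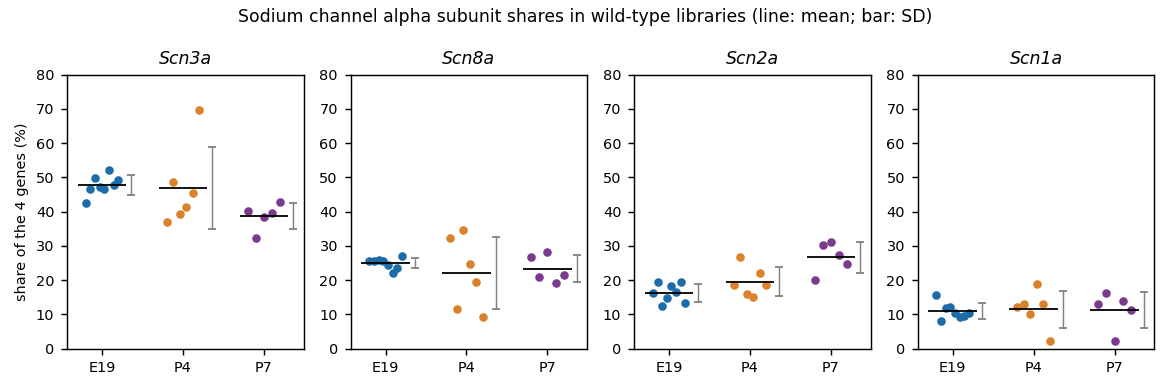
Share (%) of Scn3a, Scn8a, Scn2a and Scn1a in their summed CPM per kb in each WT library at E19, P4 and P7; lines are means and bars SD. Scn3a has the highest mean at each stage, and the libraries of neighbouring stages overlap for all 4 genes.

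From P4 to P7, within one sequencing round, none of the 31 tested channel genes was called in WT by edgeR, beside 2.29% of all genes. The unadjusted p was under 0.05 for 3 of them and for 22.3% of all genes, and DESeq2 called 0 channel genes and 1.9% of all genes. The smallest p was that of Cacna1d (log2 fold change 0.69 ± 0.23 SE, adjusted p = 0.108). Its level ran from 2.73 to 5.86 CPM (median 4.94) at P4 and from 6.84 to 9.02 CPM (median 7.74) at P7, without overlap. Cacng5 ran from 29.6 to 39.05 CPM (median 34.6) at P4 and from 3.48 to 25.3 CPM (median 16.4) at P7, again without overlap (log2 fold change -1.23, adjusted p = 0.162). Left out 1 library at a time, the P7 second female library decided one call: without it Cacna2d1 passed with a log2 fold change of -1.11 (adjusted p = 0.0427). Microglia markers were higher at P7 (42.1 to 71.1 CPM at P4 and 221 to 1252 at P7 in sum), beside the glial markers above.

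The levels of Scn2a, Scn3a, Scn8a and Cacna1c in every group follow, whatever their tests gave. Scn2a was at 25.3 ± 5.7 and 25.5 ± 8.05 CPM in WT E19 females and males, at 18.8 ± 1.76 and 22.3 ± 6.13 in the Cux1 KO and at 26.2 ± 3.9 and 28.3 ± 6.99 in the Cux2 KO (SD, n = 4 per group). At P4 it was at 12.8 ± 9.61 and 18.1 ± 2.06 CPM in WT and at 29.4 ± 12.9 and 23.4 ± 6.67 in the Cux2 KO (n = 3 per group), at 41.3 ± 5.31 in Cux1 KO males (n = 2), and at P7 at 22.7 ± 16.5 and 17.97 ± 7.97 in WT females (n = 2) and males (n = 3). Cux1 KO and Cux2 KO females at E19 did not overlap, the other pairs of E19 groups did, and the 2 Cux1 KO males stood above the other P4 male libraries. Scn3a was at 76.8 ± 9.99 and 74.7 ± 13.04 CPM in WT E19 females and males, at 69.9 ± 8.69 and 79.3 ± 16.03 in the Cux1 KO and at 66.2 ± 13.6 and 77.9 ± 18.6 in the Cux2 KO (SD, n = 4 per group). At P4 it was at 25.7 ± 16.5 and 53.4 ± 18.3 CPM in WT and at 30.1 ± 7.13 and 29.5 ± 3.83 in the Cux2 KO (n = 3 per group), at 52.99 ± 9.66 in Cux1 KO males (n = 2), and at P7 at 30.3 ± 10.7 and 27.4 ± 12.6 in WT females (n = 2) and males (n = 3). No pair of E19 groups was apart for Scn3a.

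Scn8a was at 50.1 ± 6.87 and 43.6 ± 8.41 CPM in WT E19 females and males, at 45.9 ± 6.71 and 53.3 ± 3.37 in the Cux1 KO and at 49.2 ± 4.23 and 48.3 ± 6.89 in the Cux2 KO (SD, n = 4 per group). At P4 it was at 15.4 ± 3.18 and 21.3 ± 9.97 CPM in WT and at 22.1 ± 1.66 and 17.7 ± 5.91 in the Cux2 KO (n = 3 per group), at 8.25 ± 10.2 in Cux1 KO males (n = 2), and at P7 at 23.4 ± 7.91 and 17.3 ± 5.03 in WT females (n = 2) and males (n = 3). The 2 P4 Cux1 KO libraries differed widely, at 1.05 and 15.5 CPM. Cacna1c was at 72.4 ± 8.18 and 66.9 ± 12.7 CPM in WT E19 females and males, at 56.5 ± 4.76 and 66.7 ± 11.3 in the Cux1 KO and at 69.4 ± 3.76 and 69.8 ± 8.19 in the Cux2 KO (SD, n = 4 per group). At P4 it was at 6.57 ± 1.92 and 7.59 ± 2.55 CPM in WT and at 9.83 ± 4.55 and 7.42 ± 1.61 in the Cux2 KO (n = 3 per group), at 6.27 ± 0.136 in Cux1 KO males (n = 2), and at P7 at 4.67 ± 1.14 and 5.5 ± 2.79 in WT females (n = 2) and males (n = 3). For Cacna1c every E19 mean exceeded every later one, and Cux1 KO females did not overlap WT females, Cux2 KO females or Cux2 KO males at E19, while all other pairs of E19 groups overlapped.

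At E19 the edgeR test called no channel gene in either knockout against WT, but Cux1 KO and Cux2 KO females differed from each other. Of 30 tested channel genes, 3 were lower in Cux1 KO than in Cux2 KO females and none was higher. Over all genes 1.34% were called, 1.16% lower. Cacna1e had 21.7, 16.9, 17.2 and 14.4 CPM in the 4 Cux1 KO female libraries, 39.12, 31.2, 37.4 and 28.7 in the 4 Cux2 KO libraries and 19.5, 26.6, 12.5 and 23.8 in WT. The knockouts did not overlap (log2 fold change -0.96 ± 0.15 SE, adjusted p = 0.00607), and the WT libraries overlapped Cux1 KO and lay below Cux2 KO. Cacna1g had 19.8, 16.4, 9.12 and 7.63 CPM in Cux1 KO, 33.7, 39.6, 39.2 and 52.1 in Cux2 KO and 19.2, 28.1, 10.4 and 28.7 in WT females. Here too the knockouts were apart (log2 fold change -1.64 ± 0.27 SE, adjusted p = 0.00722) while WT overlapped Cux1 KO and lay below Cux2 KO. Cacna2d3, an alpha2delta subunit, had 5.24, 5.61, 4.73 and 2.42 CPM in Cux1 KO, 10.5, 20.3, 11.02 and 11.6 in Cux2 KO and 5.46, 6.18, 9.6 and 11.5 in WT (log2 fold change -1.57 ± 0.28 SE, adjusted p = 0.013). WT overlapped both knockouts, which did not overlap each other, and the second Cux2 KO library was high. Cacna1e lies at chr1:154266477-154760247, Cacna1g at chr11:94299217-94365230 and Cacna2d3 at chr14:28626892-29444600, on 3 different chromosomes (GRCm39).

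The median log2 fold change of Cux1 KO over Cux2 KO females was -0.23 over the tested channel genes and 0.00 over all genes. With the 6 E19 groups in one fit, none of the 3 genes passed (adjusted p = 0.195 for Cacna1e, 0.227 for Cacna1g and 0.0916 for Cacna2d3). Leaving out the third Cux1 KO female library, Cacna2d3 no longer passed (adjusted p = 0.0519). Interneuron markers summed to 266 to 576 CPM in the Cux1 KO and 317 to 937 in the Cux2 KO females, and deep-layer neuron markers to 459.7 to 576 and 479.7 to 643. Endothelial markers summed to 6.6 to 13.2 and 9.41 to 47.1 CPM. Their part in the result was not tested.

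In E19 males, edgeR called none of 31 channel genes between the knockouts, beside 0.378% of all genes. The unadjusted p was under 0.05 for 3 of them and for 14.3% of all genes. DESeq2 called 1, Cacna2d2, and 1.07% of all genes. That gene, an alpha2delta subunit, had 16.2, 9.25, 7.14 and 9.81 CPM in Cux1 KO, 4.15, 4.86, 4.11 and 3.19 in Cux2 KO and 18.5, 8.94, 7.94 and 5.08 in WT males. The knockouts did not overlap (log2 fold change 1.36 ± 0.26 SE, adjusted p = 0.0562 by edgeR). It passed in edgeR when the third Cux1 KO or the second Cux2 KO male library was left out (adjusted p = 0.038 and 0.032). Cacna1e, Cacna1g and Cacna2d3 were not called in males, with log2 fold changes of -0.36, -1.19 and -0.32. The first Cux1 KO male library was high for Cacna1g (42.9, 11.3, 13.97 and 10.6 CPM in the 4 libraries). Whether the female and male differences between the knockouts differ from each other was not tested.

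**Figure D4:**
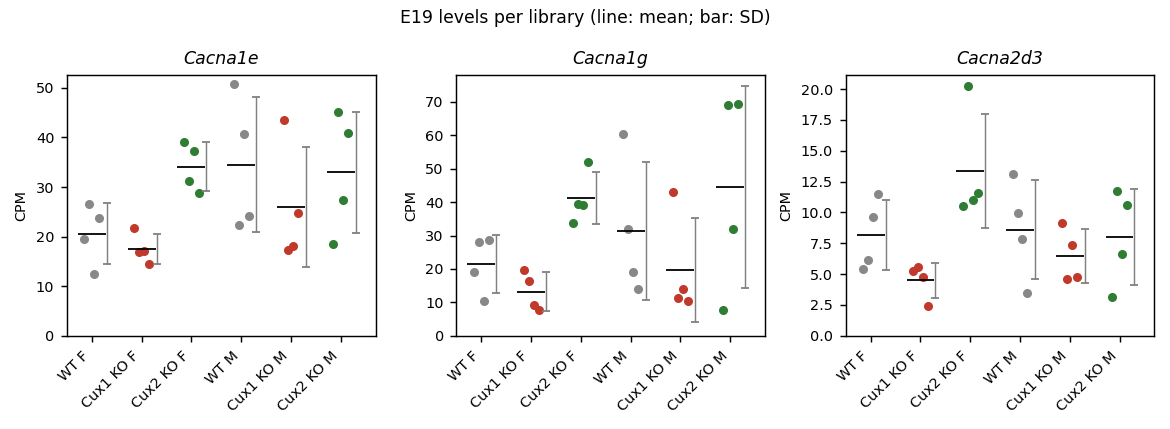
CPM of Cacna1e, Cacna1g and Cacna2d3 in each E19 library of WT, Cux1 KO and Cux2 KO females (F) and males (M), 4 libraries per group; lines are means and bars SD. In females the Cux1 KO points lie below all Cux2 KO points for the 3 genes, and in males the groups overlap.

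Against WT at E19, edgeR called 0 of 31 channel genes in each of 6 comparisons. For the Cux1 KO in females, 0.0576% of all genes were called; 4 of 31 channel genes and 6.87% of all genes were at an unadjusted p under 0.05, with Cacna1c the smallest of the channel genes (log2 fold change -0.35 ± 0.10 SE, adjusted p = 0.422). The L-type gene had 54.2, 51.6, 62.6 and 57.8 CPM in the Cux1 KO and 63.8, 81.8, 67.7 and 76.4 in WT females, without overlap. In Cux1 KO males, 0.0979% of all genes were called; 2 of 31 channel genes and 10.4% of all genes were at an unadjusted p under 0.05, with Cacna2d1 the smallest of the channel genes (log2 fold change 0.48 ± 0.15 SE, adjusted p = 0.304). With both sexes in one fit, 0.243% of all genes were called; 8 of 31 channel genes and 12.9% of all genes were at an unadjusted p under 0.05, with Cacng1 the smallest of the channel genes (log2 fold change -1.32 ± 0.40 SE, adjusted p = 0.163). For the Cux2 KO in females, 0.0287% of all genes were called; 5 of 31 channel genes and 4.62% of all genes were at an unadjusted p under 0.05, with Cacna1e the smallest of the channel genes (log2 fold change 0.74 ± 0.20 SE, adjusted p = 0.618). Cux2 KO females were all above WT females for this R-type pore. In Cux2 KO males, 0.121% of all genes were called; 2 of 31 channel genes and 7.94% of all genes were at an unadjusted p under 0.05, with Cacna2d2 the smallest of the channel genes (log2 fold change -1.33 ± 0.34 SE, adjusted p = 0.367). In the fit over both sexes of the Cux2 KO, 0.101% of all genes were called; 4 of 31 channel genes and 8.68% of all genes were at an unadjusted p under 0.05, with Cacna2d2 the smallest of the channel genes (log2 fold change -1.01 ± 0.36 SE, adjusted p = 0.395). DESeq2 called 1 channel gene in these 6 comparisons, Cacna2d2 in Cux2 KO males. The log2 fold change, shrunken by the prior of DESeq2, was -0.57 there (adjusted p = 0.0442). DESeq2 called 0.222% of all genes in that comparison. Interactions of knockout with sex called 0.0% of all genes for the Cux1 KO and 0.0% for the Cux2 KO, with 1 and 2 channel genes at an unadjusted p under 0.05, beside 3.81% and 3.78% of all genes. The smallest were Scn8a and Cacng3, and DESeq2 called none.

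At P4, several channel genes had no overlap between the 2 Cux1 KO and the 3 WT male libraries. Groups this small can be apart by chance, and the share of all genes that were apart is not given here. The edgeR test called none of 31 channel genes. It called 0.0% of all genes, although 20.5% of them, and 4 of the channel genes, had an unadjusted p under 0.05. DESeq2 called 8.36% of all genes and 4 of 30 channel genes: Cacnb3, Cacng5, Scn2a and Cacna1d. The fit over all P4 groups called 3, Cacnb3, Cacng5 and Cacna2d2, and the share of all genes that it called is not given here. Cacnb3 had 112 and 89.2 CPM in the Cux1 KO, 29.1, 18.6 and 32.8 in WT and 34.3, 34.3 and 14.1 in Cux2 KO males. Both Cux1 KO libraries lay above every other P4 library (log2 fold change 1.89 ± 0.31 SE, adjusted p = 0.0764 by edgeR, 4.77e-06 by DESeq2). Cacng5 had 0.804 and 0.0463 CPM in the Cux1 KO, 29.6, 29.7 and 34.7 in WT and 48.1, 27.2 and 27.5 in Cux2 KO males. This TARP was nearly without reads in both Cux1 KO libraries, 18 counts in all (log2 fold change -6.30 ± 1.33 SE, adjusted p = 0.0934 by edgeR and 3.18e-06 by DESeq2). These libraries held reads of 17049 and 19115 genes, fewer than any other P4 library (20844 to 23736). The paper also reports that Cux1 KO neurons died more often than WT ones while the tissue was dissociated. The part of either in the channel and marker values was not tested. Without the second Cux1 KO library Cacng5 passed in edgeR (adjusted p = 0.0434), with the lone library assumed to vary like WT.

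Scn2a had 37.5 and 45.03 CPM in the Cux1 KO and 15.8, 19.3 and 19.4 in WT males, without overlap (adjusted p = 0.107 by edgeR and 1.08e-04 by DESeq2). Cux2 KO males had 17.8, 30.8 and 21.7 CPM, and a Cux2 KO female library reached 42.1. Cacna1d had 8.79 and 15.1 CPM in the Cux1 KO and 5.66, 5.27 and 4.62 in WT (DESeq2 adjusted p = 0.0485, edgeR 0.295). For the R-type pore Cacna1e the values were 18.9 and 17.7 and 1.94, 6.25 and 7.23 CPM, also apart but called by neither tool. Cacnb2 had no count in the Cux1 KO and 100 counts over WT males. With counting error alone it was at least 12.9-fold lower over the group, although 1 WT library also had only 0.0292 CPM. Cacng8 was lower without overlap, at 12.3 and 15.1 against 21.2, 17.7 and 26.02 CPM, and was called by neither tool. Other genes without overlap and called by neither tool included Cacna1g, Cacng2, Cacng3 and Cacng4, which were higher, and Cacna2d2, which was lower.

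Markers moved as well in these libraries. Upper-layer neuron markers summed to 1399 to 1899 CPM in the 2 Cux1 KO and 798 to 1027 in the 3 WT male libraries. Interneuron markers summed to 82.03 to 162 against 352 to 551 CPM, with Slc32a1 at 0 in both Cux1 KO libraries. Ciliated ependymal markers were at 0.0502 to 0.0927 against 24.1 to 73.7 CPM, with Foxj1, Dnah5 and Dnah11 at 0, and mural cell markers at 0.201 to 53.3 against 232 to 389. Oligodendrocyte lineage markers summed to 1107 to 1239 against 2088 to 2949 CPM, and astrocyte and radial glia markers to 4784 to 6706 against 3945 to 5168. The part of these in the channel values was not tested. The labelling plasmids also differed between Cux1 KO and the other P4 groups and cannot be told apart from genotype.

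Between Cux1 KO and Cux2 KO males at P4, which share the Cux1 KO libraries with the comparison above, edgeR called none of 33 channel genes beside 2.98% of all genes. An unadjusted p under 0.05 was found for 10 of them and for 24.9% of all genes. DESeq2 called 9.31% of all genes and 5 of 35 channel genes: Cacng5, Cacnb3, Cacng7, Cacna1e and Cacna1d. Cacng5 had the smallest p (log2 fold change -6.43 ± 1.34 SE, adjusted p = 0.0672 by edgeR), and it passed when either Cux1 KO library was left out, where the spread comes from the Cux2 KO libraries and the lone Cux1 KO library is assumed to vary like them (adjusted p = 0.0233 and 0.0158). In the same way, Scn8a and Cacna2d2 passed without the second Cux1 KO library (adjusted p = 0.0237 and 0.0363). For Scn8a that rests on 1 library, since the 2 Cux1 KO libraries had 1.05 and 15.5 CPM and the Cux2 KO males 24.04, 12.3 and 16.8. With all P4 groups in one fit 4 were called, Cacng5, Cacnb3, Cacng7 and Cacna1d, and the share of all genes called in that fit is not given here.

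**Figure D5:**
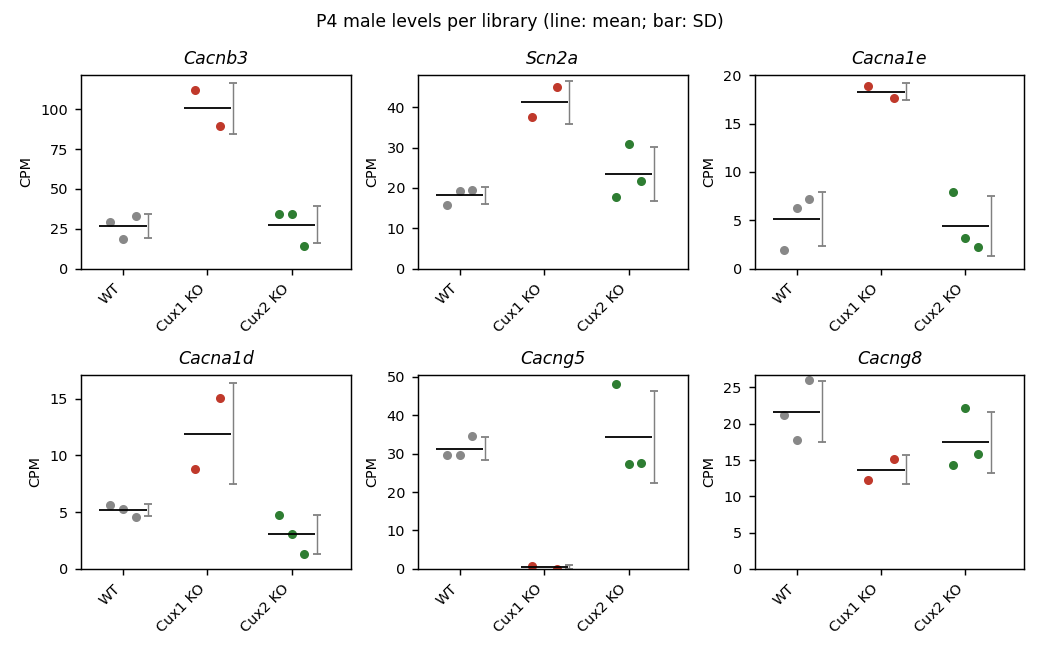
CPM of Cacnb3, Scn2a, Cacna1e, Cacna1d, Cacng5 and Cacng8 in each P4 male library of WT (n = 3), Cux1 KO (n = 2) and Cux2 KO (n = 3); lines are means and bars SD. The Cux1 KO points of Cacnb3, Scn2a, Cacna1e and Cacna1d lie above the other libraries and those of Cacng5 lie near 0.

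In the Cux2 KO at P4, edgeR and DESeq2 called 0 channel genes against WT in females, in males and over both sexes. The share of all genes that DESeq2 called there is not given here. The edgeR fits by sex called no gene at all (smallest adjusted p = 0.213 in females and 0.132 in males), so they cannot show that channel genes are unchanged. In females, 0.0% of all genes were called; 5 of 30 channel genes and 7.39% of all genes were at an unadjusted p under 0.05, with Cacng3 the smallest of the channel genes (log2 fold change 9.11 ± 1.88 SE, adjusted p = 0.524). Cacng3, a TARP, had no reads in WT P4 females and 1.06, 0.32 and 4.39 CPM in the Cux2 KO, so that this fitted fold depends on the prior count. In males, 0.0% of all genes were called; 2 of 30 channel genes and 5.76% of all genes were at an unadjusted p under 0.05, with Cacng6 the smallest of the channel genes (log2 fold change 8.10 ± 1.29 SE, adjusted p = 0.326). With both sexes fitted together, 0.0528% of all genes were called; 2 of 34 channel genes and 5.82% of all genes were at an unadjusted p under 0.05, with Cacng6 the smallest of the channel genes (log2 fold change 7.87 ± 1.58 SE, adjusted p = 0.447). Cacng6 had no reads in the 6 WT P4 libraries, and the same limit holds for its fold. The interaction of Cux2 KO with sex at P4 called 0.0% of all genes and no channel gene in edgeR, with 2 channel genes and 7.27% of all genes at an unadjusted p under 0.05 and Cacnb4 the smallest (log2 difference -1.72 ± 0.53 SE, adjusted p = 0.639). DESeq2 called Cacng3 in that interaction, a gene at 0 in one of the groups, and 0.877% of all genes.

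No channel gene was called between the sexes in WT by edgeR or by DESeq2, whose share over all genes is not given here. At E19, 0.0461% of all genes were called; 3 of 31 channel genes and 3.67% of all genes were at an unadjusted p under 0.05, with Cacna1e the smallest of the channel genes (log2 fold change -0.77 ± 0.27 SE, adjusted p = 0.992). Cacna1e had 19.5, 26.6, 12.5 and 23.8 CPM in the females and 50.8, 22.4, 40.8 and 24.3 in the males, and the sexes overlapped. At P4, edgeR called 0.0% of all genes (smallest adjusted p = 0.0602). It thus missed even the sex-linked genes that the paper reports at every stage, so this fit cannot show that channel genes are alike. An unadjusted p under 0.05 was found for 2 of 30 channel genes and 7.28% of all genes. Cacng8 had the smallest p of the channel genes (log2 fold change -0.75 ± 0.23 SE, adjusted p = 0.675). Females had 13.01, 13.03 and 12.4 CPM of Cacng8 and males 21.2, 17.7 and 26.02, with no overlap. At P7, 0.0247% of all genes were called; 1 of 31 channel genes and 4.36% of all genes were at an unadjusted p under 0.05, with Cacng6 the smallest of the channel genes (log2 fold change -7.13 ± 2.01 SE, adjusted p = 1.000). Cacng6 had no reads in the 2 P7 females.

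Transcripts of proteins that work with these channels changed in both directions from E19 to P4 in WT. Of 10 sodium channel partners, 5 were called lower and 2 higher, beside 23.7% lower and 22.6% higher over all genes. The initial segment scaffold genes Ank3, Sptbn4 and Nfasc fell, with log2 fold changes of -1.98, -4.86 and -2.10, as did the ubiquitin ligase gene Nedd4l (-1.69) and Fgf11 (-2.10). Fgf14, which binds the sodium channel tail, rose (2.22), and so did the adhesion gene Nrcam (1.08). Of 13 tested calcium channel partners 5 fell and 0 rose, among them the release-site genes Rims1 (-1.58) and Rimbp2 (-2.81), Cabp1 (-5.12), Stac2 (-3.96) and Stac3 (-3.79).

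Of 10 AMPA receptor complex genes, 4 fell and 1 rose, beside the same 23.7% and 22.6% of all genes. The receptor subunit genes Gria1 and Gria2 fell (-1.77 and -1.20), as did the auxiliary genes Shisa6 (-1.84) and Shisa7 (-4.16), while Shisa9 rose (1.06). In the sodium leak complex, Unc79 (-2.71) and Nalf2 (-3.10) fell and the other 3 genes were not called. Medians of the 4 lists were -0.77, -0.63, -0.55 and -0.12, against 0.03 over all genes. Between Cux1 KO and Cux2 KO females at E19, 1 of 10 sodium channel partners, Fgf14, and 1 of 10 AMPA receptor complex genes, Gria4, were lower in the Cux1 KO; from P4 to P7 in WT, Nfasc rose.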

How the data were processed

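Raw read counts per gene were deposited by the authors for all 43 libraries in one table. Per the study's methods, 60-nt single-end reads were aligned with HISAT2 to GRCm39 (Y-masked for females), reads duplicated beyond a ceiling of 50 were removed, and primary alignments were counted with featureCounts over Ensembl 108 genes. The strand setting is not given in the sources used here, so overlapping antisense genes cannot be told apart. The counts were deposited without normalization, and the duplicate ceiling can cap short, abundant genes.

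Counts were tested pairwise with edgeR 4.0.16 in R 4.3.3 (TMM, filterByExpr, quasi-likelihood test, a sex term where both sexes entered) with Benjamini-Hochberg adjustment over all genes tested. Calls needed an adjusted p under 0.05 and a log2 change, up or down, larger than 0.5 within E19 or larger than 1 in every other comparison; interactions had no fold limit. Fold changes are first group over second. Levels are CPM on one TMM scale over 43 libraries, divided by kb of merged exons (GENCODE M39) to compare genes. Sodium channel shares were compared with exact two-sided permutation tests over libraries (scipy 1.17.1), adjusted over 8. DESeq2 1.42.0 was an alternative, with its log2 fold change prior except in the interactions. The prior shrinks fold changes, and the shrunken values were held against the same limits. The edgeR step was tested on simulated data. Total depth ran from 13321095 to 60559585 counts, and low genes carry few reads; bounds against 0 use a floor of 3 counts over the group and cover counting error only.

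Outside the stage steps by sex and the alternative settings, every gene called was named, and the gene with the smallest p where none was. Scn2a, Scn3a, Scn8a and Cacna1c were named throughout. Other genes discussed by library were chosen after their values were seen. Members and lists were chosen with earlier results of these data known. The Cux2 KO stage step and the stage steps by sex were added after the data were seen. Values of 2 of the 40 genes are not reported here, though the counts and medians include them. All libraries were used, and no 2 libraries of a group agreed within sampling noise.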

Additional observations from a re-analysis of the deposited data

Results flagged for a closer look

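Gaps between libraries were examined only for channel genes called in a comparison and for Scn2a, Scn3a, Scn8a and Cacna1c. Among 120 groups of 4 libraries, counted per gene, 10 held a library whose gap to the nearest other exceeded Dixon's 95% critical value. Chance gives such a gap in about 1 of 20 groups. Cacna1g in Cux1 KO E19 male library 1 stood above the rest of its group, with 42.9 CPM against 10.6 to 13.97 CPM in the other 3 libraries. Cacna1i in Cux1 KO E19 male library 1 stood above the rest of its group, with 11.3 CPM against 4.28 to 5.09 CPM in the other 3 libraries. Cacna2d1 in Cux2 KO E19 female library 2 stood below the rest of its group, with 117 CPM against 154 to 161 CPM in the other 3 libraries. Cacna2d3 in Cux2 KO E19 female library 2 stood above the rest of its group, with 20.3 CPM against 10.5 to 11.6 CPM in the other 3 libraries. Cacnb1 in WT E19 male library 1 stood above the rest of its group, with 88.6 CPM against 71.98 to 74.05 CPM in the other 3 libraries. Cacng1 in Cux2 KO E19 female library 4 stood above the rest of its group, with 6.91 CPM against 0.578 to 1.42 CPM in the other 3 libraries. Cacng2 in Cux1 KO E19 female library 3 stood above the rest of its group, with 31.03 CPM against 22.5 to 23.8 CPM in the other 3 libraries. Cacng7 in Cux1 KO E19 male library 4 stood above the rest of its group, with 173 CPM against 158 to 161 CPM in the other 3 libraries. Scn3a in WT E19 female library 4 stood above the rest of its group, with 91.6 CPM against 70.1 to 72.7 CPM in the other 3 libraries. Scn9a in WT E19 male library 2 stood below the rest of its group, with 0.471 CPM against 1.86 to 2.00 CPM in the other 3 libraries. The gaps were not tested further.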

How the results depend on the processing

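Over the alternatives, 673 of 692 values of named channel genes kept their direction and side of the threshold, 8 lost and 11 gained the call, and 0 changed sign. Of the 692 values, 408 came from WT P4 against E19, and 238 of those left out 1 library and reused all others. Where a comparison had no call, its named gene counted as kept by staying uncalled with the same sign. The 673 thus say little about how stable the calls of other comparisons are. Of 287 counts of called channel genes, 268 stayed within 1.5 times the reported count. Most comparisons reported 0, where this only means a count of 0 again, so it says little about how stable the calls are. With DESeq2 the count was 4 for Cux1 KO against WT P4 males, 1 for Cux2 KO against WT E19 males, 1 for Cux1 KO against Cux2 KO E19 males and 5 for P4 males. Without a filter on low counts it was 1 for Cux2 KO against WT E19 females (Cacna1g, log2 fold change 0.95), 5 for Cux1 KO against Cux2 KO E19 females and 1 in males. With all groups in one fit it was 0 for Cux1 KO against Cux2 KO E19 females, 4 for P4 males, 3 for Cux1 KO against WT P4 males, 26 of 37 tested for WT P4 against E19, and 1 for P7 against P4 (Cacng5, -1.24). The share of all genes called is not given here for the fits without a filter, with all groups or with 1 library left out. Those counts thus cannot be set against all genes. Why the counts differ between settings was not tested. Leaving out 1 library gave 0 to 1 for Cux1 KO against WT P4 males, 2 to 4 for Cux1 KO against Cux2 KO E19 females, 0 to 1 for E19 males, 0 to 3 for P4 males, 17 to 19 for WT P4 against E19 and 0 to 1 for P7 against P4. DESeq2 without a prior called 1 for Cux2 KO by sex at P4.

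Of 124 values of sodium channel shares, 15 changed sign, none past the threshold. In percentage points, females alone gave -0.25 for Scn1a and 0.489 for Scn8a from E19 to P4, and 2.91 and -2.34 from P4 to P7; males alone gave 3.26 for Scn3a from E19 to P4. Leaving out 1 library gave, from E19 to P4, -0.832 to 2.47 for Scn1a, 1.78 to 4.1 for Scn2a, -5.42 to 1.16 for Scn3a and -5.5 to -0.421 for Scn8a, and from P4 to P7 -2.07 to 2.03, 6.07 to 8.81, -10.2 to -3.66 and -1.27 to 3.81.

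Replicate numbers did not pair the libraries: over 27 pairs of groups the correlation of same-numbered libraries ran from -0.195 to 0.364, and no pair of groups with at least 3 pairs had every one over 0.1. A replicate block gave 23 called channel genes for WT P4 against E19 (1 higher), 3 for Cux1 KO against Cux2 KO E19 females and 0 for P7 against P4. The share of all genes called with the block is not given here. With 2 Cux1 KO libraries at P4, calls there rest on few libraries, and genes under 1 CPM rest on few reads.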
